A study of Mus musculus with 12 samples.

Results

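The genes described here are the solute carrier (SLC) transporters that RAW264.7 cells, a mouse macrophage-like cell line, expressed in an RNA-seq experiment with 12 libraries. They were chosen by symbol (Slc, a family number, the letter a and a member number) and by level, with an FPKM of 1 or more in 3 or more of the 12 libraries. FPKM counts the fragments of a gene relative to its transcript length and to the number of fragments mapped in that library. Of 53801 gene records, 334 symbols had this form and 155 of them reached the level. The rule leaves out 7 names (Slc7a2, Slc7a11, Slc37a2, Slc2a1, Slc2a6, Slc16a1 and Slc16a3), of which all but Slc7a2 reached the level, and so 149 transporters remained. The levels that chose the members are given as a description. The members just inside the limit were Slc46a1, Slc27a3 and Slc16a5, which in the library that ranked the third highest had 1.04, 1.19 and 1.25 FPKM. Just outside it were Slc22a17, Slc46a3 and Slc25a18 at 0.972, 0.96 and 0.96. Of the 179 symbols under the limit, 95 were listed at 0 in all 12 libraries.

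Cells had received a small interfering RNA (siRNA) against Synbindin, whose gene is Trappc4, or a control siRNA, and were collected after 4 h with 100 ng/ml lipopolysaccharide (LPS) or without LPS. LPS is a component of bacterial outer membranes that macrophages sense through Toll-like receptor 4. The 4 groups were silenced cells after LPS, control cells after LPS, silenced cells without LPS and control cells without LPS, each with 3 libraries of total RNA from cells at passages 3-5 grown in DMEM with 10% FBS. Every group consisted of the same line transfected with an siRNA, silencing lowered the transcript without removing it, and nothing in the labels says whether the libraries of a group came from separate transfections. The p-values therefore measure the spread between these libraries, which may be technical.

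Solute carriers are membrane proteins that move amino acids, sugars, nucleosides, vitamins, metals, inorganic ions and metabolites across the plasma membrane and the membranes of lysosomes, mitochondria and the Golgi. They work as exchangers, as cotransporters driven by an ion gradient, or as uniporters, and are grouped into families by sequence. In macrophages they are known for withholding iron from ingested microbes, for exporting peptides from endolysosomes and for feeding the amino acid demand of activation.

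Trappc4 had 5.86 to 8.26 FPKM in silenced cells and 9.45 to 15.7 FPKM in control cells after LPS. Without LPS it had 4.35 to 7.17 FPKM in silenced cells and 12.5 to 14.1 FPKM in control cells. The mean left was 56.1% after LPS and 44.5% without LPS. The groups did not overlap at either time (2-sided exact permutation p = 0.1 each, the smallest that 3 against 3 allows), and limma's adjusted p was 0.12 after LPS and 0.0558 without LPS. Of 8 macrophage markers, 7 symbols were over the limit (Csf1r, Adgre1, Cd68, Itgam, Spi1, Cd14 and Lyz2, not Mrc1). The summed FPKM of all 8 symbols (9 gene records, with Mrc1 and a second Itgam record) after LPS was 1997 to 2722 in silenced cells and 1490 to 1879 in control cells. Without LPS it was 2158 to 2607 in silenced cells and 1560 to 1699 in control cells. At both times the sums of silenced libraries lay above those of control ones. A sum follows its most abundant genes, so it does not show that each marker was higher. All 4 osteoclast markers (Ctsk, Acp5, Ocstamp, Dcstamp) were over the limit as well. Their summed FPKM was 93.9 to 106 in silenced cells after LPS and above that, at up to 137, in all 3 control libraries after LPS, and 53.6 to 73.7 in silenced cells and 59.9 to 61.7 in control cells without LPS, so that it was higher after LPS in both and lower in silenced than in control cells after LPS. None of the markers of B cells, T and NK cells, neutrophils, fibroblasts or epithelium was, and no library had a sum over 0.525 FPKM for any of these lists. The part of these marker differences in any result on silencing or LPS was not tested. In these bulk libraries, fewer cells with a transcript and less of it per cell cannot be told apart. Between 11672 and 12351 genes had an FPKM of at least 1 in a library. Depth is unknown, since only 3.69% to 10.2% of low values lay within 1% of whole fragment steps.

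All but 27 of the 149 transporters were over the limit in all 12 libraries. Their mean FPKM over the libraries had a median of 7.16, against 6.63 for all genes tested, and 2 members exceeded 100, 54 lay between 10 and 100 and 93 lay under 10. The highest level was that of Slc25a5, an adenine nucleotide translocase of the inner mitochondrial membrane, with a mean of 417 FPKM. Slc39a1, a zinc importer, followed at 109 FPKM, then Slc25a4, a second adenine nucleotide translocase, at 71.4 FPKM, Slc6a12, a betaine and GABA transporter, at 69.0 FPKM and Slc6a6, the taurine transporter, at 68.3 FPKM. The level was reached only in LPS libraries by 4 members (Slc26a9, Slc28a2, Slc39a2 and Slc6a4) and only in libraries without LPS by 5 (Slc16a12, Slc26a11, Slc40a1, Slc46a1 and Slc9a5). These 9 had to differ between the times to enter, and nothing is read from their direction. One further gene, Slc26a10, reached the level only in silenced libraries and is named here after its values were seen. It had 2.12, 0.163 and 1.92 FPKM in silenced cells after LPS and 0.206, 0.224 and 0.183 FPKM in control cells after LPS. Without LPS it had 0.362, 0.363 and 2.99 FPKM in silenced cells and 0.386, 0.338 and 0.433 FPKM in control cells. At each time its silenced libraries were spread widely, at least 1 of them lay among or under the control libraries, and neither difference passed the test (limma adjusted p = 0.428 after LPS and 0.688 without).

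After LPS, 24 transporters rose and 65 fell in silenced cells, and 24 rose and 59 fell in control cells, by limma on log2(FPKM + 1) with an adjusted p under 0.05 over 13078 genes. As shares these are 16.1% risen and 43.6% fallen in silenced cells, where 13.0% of all genes tested rose and 35.5% fell. In control cells 16.1% of the transporters rose and 39.6% fell, where 15.3% of all genes rose and 32.9% fell. The shares of the transporters thus lay near those of all genes. Both kinds of share include genes that reached the level only in LPS libraries or only in libraries without LPS. The median log2 fold change was -0.30 for the transporters and -0.21 for all genes in silenced cells, and -0.15 and -0.17 in control cells. All fold changes are on the log2(FPKM + 1) scale, which understates changes of low genes. Exons of 10 transporters overlap another gene on the same strand and those of 43 a gene on the other strand, which can mix their levels, since the strand setting of the counting is not given in the sources used here. The excess of falls depended on the scaling. With median-ratio scaling the median of all genes was 0.02 in both kinds of cells, and 42 transporters rose and 41 fell in silenced cells, 39 and 42 in control cells. With quantile normalization 32 rose and 43 fell in silenced cells, and 35 rose and 46 fell in control cells.

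**Figure D1:**
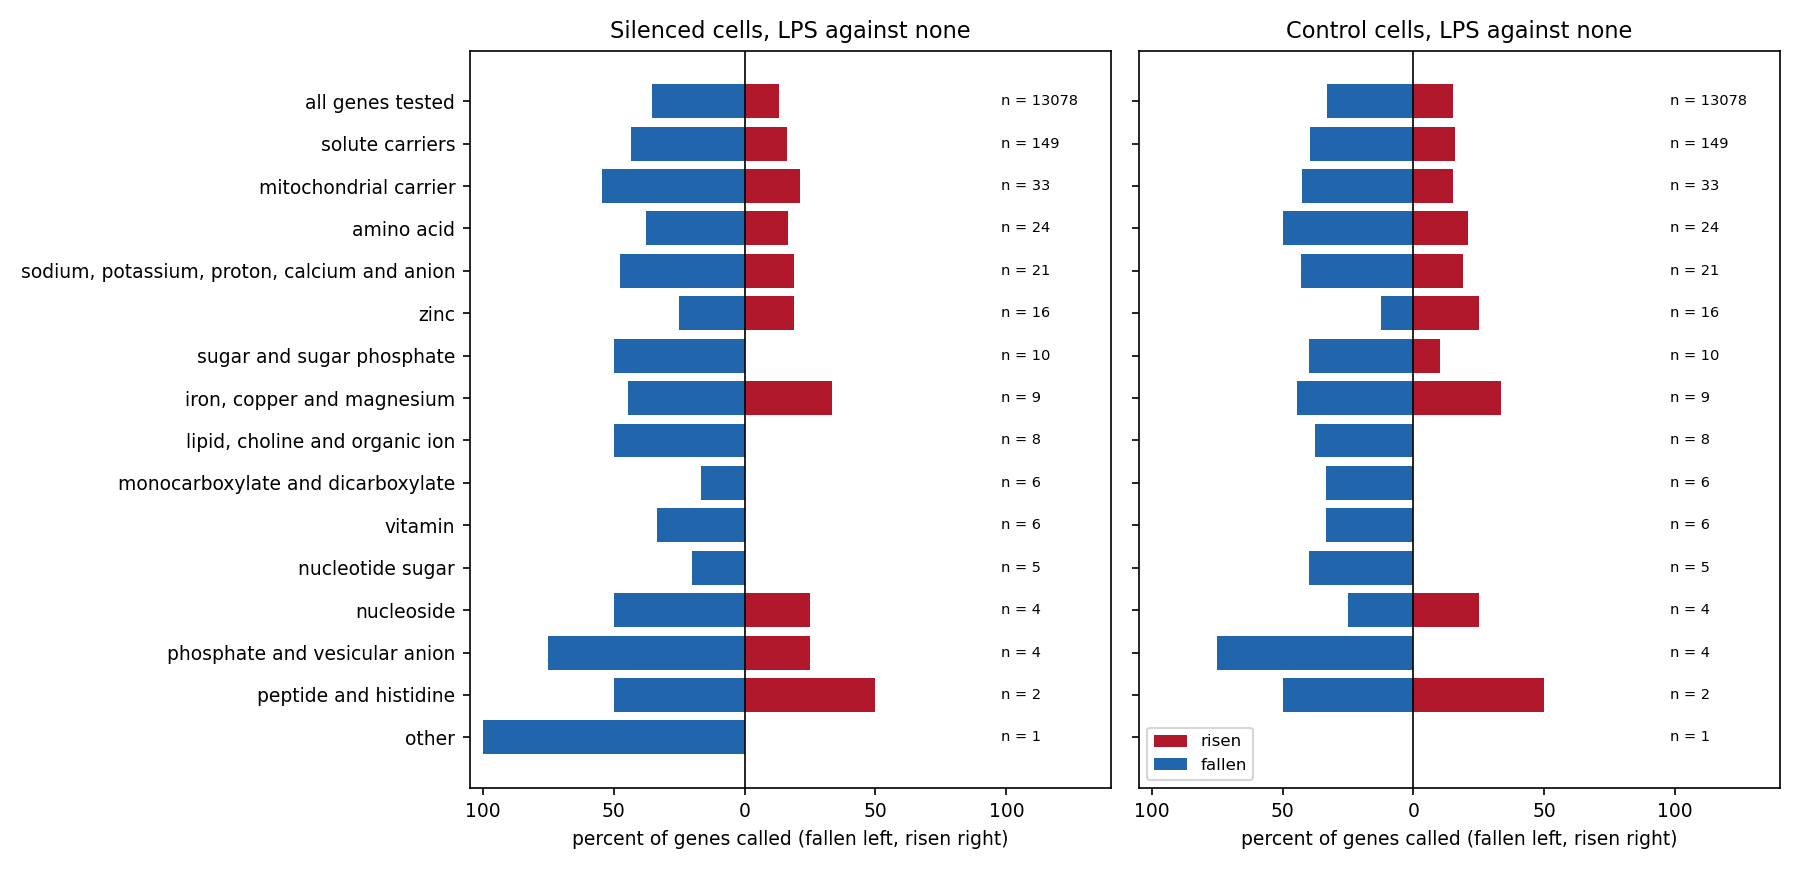
Percent of genes that rose (red, right) or fell (blue, left) with LPS, by transported substance, in silenced cells (left panel) and control cells (right panel), with the number of genes in each row beside the bars. The bars of the iron, copper and magnesium class reach 33.3% risen in both panels, and the bars of most classes are longer on the fallen side.

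The stretches of genome before the starts of 5 transporters are shown because risen and fallen members had unlike numbers of CG dinucleotides (CpG) there, a description that was not tested. RefSeq's promoter table for GRCm38.p6 held a window for 112 of the 149 members, and the 250 bases before the start were used. The median CpG number was 11.5 over the 20 risen members with a window, 17 over the 43 fallen and 15 over the 49 without a call in control cells. The lower and upper quartiles were 4 and 17.25 for risen and 11 and 23 for fallen members, so that the numbers overlapped widely. A median under 5 CpG over a gene's windows was found for 6 risen members (30% of them, of which Slc26a9, Slc28a2 and Slc39a2 entered through their LPS libraries), 0 fallen members and 4 without a call (8.16%). Among all tested genes the same share was 18.4% of risen and 6.41% of fallen genes, and the order of the transporters' shares was the same as that of genes in general. In the first 4 sequences, written 5′ to 3′ on the strand of the gene, capitals mark each CpG. Slc25a22 (chr7:141437875-141438124, minus strand, 4 CpG) encodes a mitochondrial glutamate carrier and Slc11a1 (chr1:74374953-74375202, plus strand, 5 CpG) a metal exporter of phagosomes. Slc38a2 (chr15:96699729-96699978, minus strand, 30 CpG) encodes a neutral amino acid transporter and Slc5a3 (chr16:92058072-92058321, plus strand, 32 CpG) a myo-inositol transporter. These examples are not typical. Slc25a22 and Slc11a1 lie near the lower quartile of risen members, and Slc38a2 and Slc5a3 lie above the upper quartile of fallen ones.
Slc25a22, risen: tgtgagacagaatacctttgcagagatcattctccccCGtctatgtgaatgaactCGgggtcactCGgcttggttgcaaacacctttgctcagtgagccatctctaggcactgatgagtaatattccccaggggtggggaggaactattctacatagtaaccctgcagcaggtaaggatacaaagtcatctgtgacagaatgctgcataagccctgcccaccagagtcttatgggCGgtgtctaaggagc
Slc11a1, risen: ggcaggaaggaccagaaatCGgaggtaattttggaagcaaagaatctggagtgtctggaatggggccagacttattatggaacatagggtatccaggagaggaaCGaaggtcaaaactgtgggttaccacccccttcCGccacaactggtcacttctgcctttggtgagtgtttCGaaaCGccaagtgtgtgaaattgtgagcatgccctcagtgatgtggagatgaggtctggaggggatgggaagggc
Slc38a2, fallen: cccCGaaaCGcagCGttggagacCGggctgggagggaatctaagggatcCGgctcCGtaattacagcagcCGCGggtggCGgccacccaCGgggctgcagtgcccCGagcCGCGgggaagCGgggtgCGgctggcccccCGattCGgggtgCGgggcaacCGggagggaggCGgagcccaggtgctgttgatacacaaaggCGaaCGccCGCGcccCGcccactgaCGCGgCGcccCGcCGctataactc
Slc5a3, fallen: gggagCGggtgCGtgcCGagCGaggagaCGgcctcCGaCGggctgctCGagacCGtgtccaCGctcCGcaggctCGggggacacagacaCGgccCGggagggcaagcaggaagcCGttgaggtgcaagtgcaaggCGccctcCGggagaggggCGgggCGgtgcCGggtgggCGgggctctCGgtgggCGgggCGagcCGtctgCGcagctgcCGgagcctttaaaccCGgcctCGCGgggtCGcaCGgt

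Slc7a7 (chr14:54417703-54417952, minus strand) encodes a light chain of the cationic amino acid exchanger and rose with LPS. In its sequence the capitals mark a match to the NF-kB consensus (GGGACTTCCC, ending 115 bases before the start) and one to TGATGNAA, the C/EBP-ATF element (TGATGCAA, ending 236 bases before the start).
Slc7a7, risen: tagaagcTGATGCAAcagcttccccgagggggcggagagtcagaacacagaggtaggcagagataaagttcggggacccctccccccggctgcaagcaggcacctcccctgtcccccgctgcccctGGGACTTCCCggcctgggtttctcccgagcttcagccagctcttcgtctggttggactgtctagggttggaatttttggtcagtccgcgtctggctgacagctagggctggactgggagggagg
Searched on both strands were 6 motifs, which could overlap. The 20 risen transporters had 31 windows and the 43 fallen ones 59, so that 3.23% of the risen windows is 1 window. The NF-kB consensus was found in 9.68% of the windows of risen transporters, 13.6% of those of fallen ones and 9.03% of those of all tested genes. TGATGNAA was found in 6.45%, 0% and 1.9% of the same windows, which is 2 windows of risen and 0 of fallen transporters. CACGTG, the core of the CLEAR element known from lysosomal genes, was found in 3.23% of the windows of risen transporters (1 window) and 22% of those of fallen ones (13 windows), against 8.72% for all tested genes. With so few windows no difference is read from these shares, and none was tested. The interferon-stimulated response element (GAAA, then NN, then GAAA) was found in 3.23% of the windows of risen and 1.69% of those of fallen transporters, against 2.87% for all tested genes. The AP-1 site (TGANTCA) was found in 3.23%, 5.08% and 4.34%, and the metal response element (TGCGCNC) in 19.4%, 18.6% and 21.6% of these windows. A match describes the letters and is not evidence of binding, and the motifs were chosen with results of these data known.

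Transporters of peptides and histidine from endolysosomes moved in opposite directions. Slc15a3, which exports histidine and bacterial muramyl peptides, had 44.1, 44.8 and 44.0 FPKM after LPS and 4.01, 5.16 and 5.03 FPKM without LPS in silenced cells. In control cells it had 35.9, 28.8 and 40.7 FPKM after LPS and 4.18, 4.06 and 3.77 FPKM without LPS. All LPS libraries lay far above all libraries without LPS, and the log2 fold change was 2.99 ± 0.12 (SE) in silenced cells (limma adjusted p = 7.77e-09) and 2.84 ± 0.12 in control cells (1.37e-08). Its paralog Slc15a4 fell to 3.19, 2.84 and 2.56 FPKM after LPS, against 6.5, 5.7 and 6.79 FPKM without LPS, in silenced cells. Control cells had 3.01, 3.56 and 2.33 FPKM after LPS and 5.42, 6.01 and 5.33 FPKM without LPS. Again the times did not overlap in either kind of cell, with log2 fold changes of -0.92 ± 0.13 in silenced and -0.74 ± 0.13 in control cells (limma adjusted p = 9.46e-05 and 0.000488). The 2 together had 47.2 FPKM after LPS and 11.1 FPKM without in silenced cells (means), and 38.1 and 9.59 FPKM in control cells. Slc15a3 shares exonic bases with Tmem132a on the other strand.

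Among the 9 iron, copper and magnesium transporters 3 rose and 4 fell in each kind of cell, and the summed FPKM of the class was 170 after LPS and 75.7 without in silenced cells, and 156 and 71.7 in control cells. The 3 that rose were Slc31a2, Slc11a2 and Slc11a1, and the 4 that fell were Slc40a1, Slc48a1, Slc41a2 and Slc41a3, of which Slc40a1 had to differ to enter. The counts of this class and of those below stand beside the shares of all genes tested. Of all genes, 13.0% rose and 35.5% fell in silenced cells, and 15.3% rose and 32.9% fell in control cells. The call of Slc41a2 in silenced cells (limma adjusted p = 0.0426) was lost in 10 of 21 alternatives. Among these were median-ratio scaling (log2 fold change -0.12, limma adjusted p = 0.513) and quantile normalization (-0.07, 0.7). Slc31a2, a copper transporter of endolysosomes, had 61.6, 60.9 and 62.9 FPKM after LPS and 6.76, 7.83 and 6.63 FPKM without LPS in silenced cells, and 59.1, 53.7 and 59.1 FPKM after LPS and 10.3, 2.45 and 8.9 FPKM without LPS in control cells. One control library without LPS lay well under its fellows, and every LPS library lay far above all others (log2 fold change 2.96 ± 0.33 in silenced and 3.00 ± 0.33 in control cells, limma adjusted p = 2.25e-05 and 2.2e-05). Slc11a2 (DMT1), which moves ferrous iron out of endosomes, had 32.7, 33.2 and 36.9 FPKM after LPS and 6.47, 7.47 and 7.45 FPKM without LPS in silenced cells. In control cells it had 29.3, 31.7 and 36.5 FPKM after LPS and 7.88, 5.66 and 6.87 FPKM without LPS. The change was close to 2 log2 units in both (2.12 ± 0.12 in silenced and 2.11 ± 0.12 in control cells, limma adjusted p = 1.02e-07 and 1.24e-07). Slc11a1 (NRAMP1), which removes iron and manganese from phagosomes, had 33.5, 31.3 and 34.7 FPKM after LPS and 10.8, 12.5 and 11.7 FPKM without LPS in silenced cells. In control cells it had 29.3, 24.5 and 28.5 FPKM after LPS and 9.4, 9.6 and 8.13 FPKM without LPS. Its log2 fold change was 1.43 ± 0.10 in silenced and 1.5 ± 0.10 in control cells (limma adjusted p = 3.96e-07 and 3.46e-07), and the times did not overlap. Transcript levels do not show whether this line makes a working NRAMP1 protein.

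Slc40a1 (ferroportin), the iron exporter of the plasma membrane, had 0.264, 0.364 and 0.407 FPKM after LPS and 2.24, 2.23 and 2.6 FPKM without LPS in silenced cells, and 0.224, 0.132 and 0.235 FPKM and 1.76, 0.968 and 3.19 FPKM in control cells. It entered through its libraries without LPS, so these low levels are given as a description and its direction is not read. Slc31a1, the copper importer of the plasma membrane, differed little. It had 20.8, 20.0 and 20.4 FPKM after LPS and 18.5, 20.5 and 19.6 FPKM without LPS in silenced cells, and 20.4, 19.8 and 19.9 FPKM and 19.5, 19.0 and 19.1 FPKM in control cells. The log2 fold change was 0.06 ± 0.07 in each (limma adjusted p = 0.468 and 0.488).

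**Figure D2:**
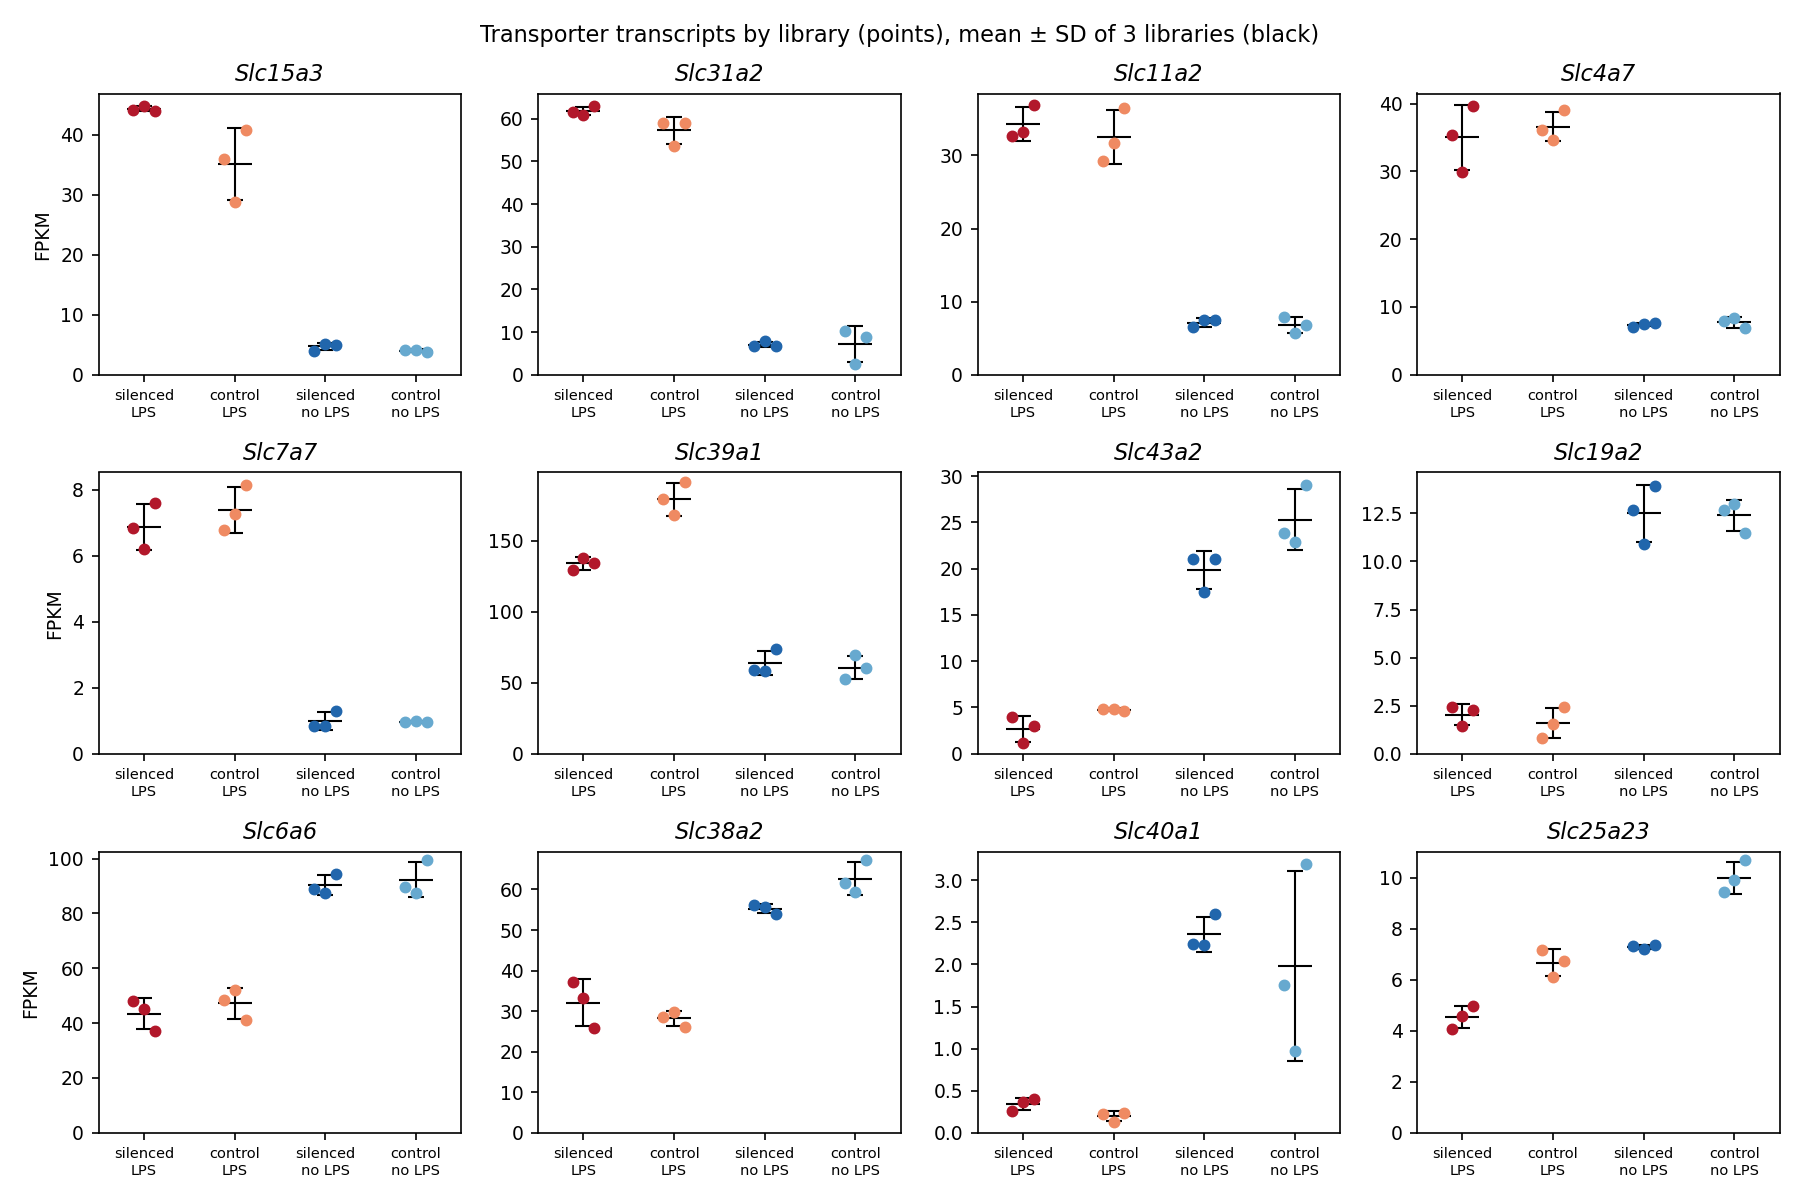
FPKM of 12 transporters in each library (points), with the mean and SD of 3 libraries in black, for silenced and control cells after LPS and without LPS. For Slc15a3, Slc31a2, Slc11a2, Slc4a7, Slc7a7 and Slc39a1 the LPS libraries lie above the libraries without LPS, and for Slc43a2, Slc19a2, Slc6a6, Slc38a2 and Slc40a1 they lie below. Slc25a23 is lower in silenced than in control cells at each time.

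Of 16 zinc transporters, 3 rose and 4 fell in silenced cells and 4 rose and 2 fell in control cells, with Slc39a2, whose direction is not read, among the risen in both. Slc39a1 (ZIP1), an importer of the plasma membrane, had 129, 138 and 134 FPKM after LPS and 59.2, 58.5 and 73.5 FPKM without LPS in silenced cells. In control cells it had 179, 168 and 191 FPKM after LPS and 52.6, 69.2 and 60.4 FPKM without LPS. It rose in both (log2 fold change 1.06 ± 0.11 in silenced and 1.55 ± 0.11 in control cells, limma adjusted p = 1.39e-05 and 8.25e-07), and after LPS no silenced library reached a control one. Slc39a2 (ZIP2), close to 0 without LPS, had 1.54, 2.03 and 2.51 FPKM after LPS in silenced cells and 1.24, 0.987 and 1.64 FPKM in control cells. It entered through its LPS libraries and shares exonic bases with Mettl17 on the same strand, so that its level is uncertain. Slc30a5 (ZnT5), which loads zinc into the secretory pathway, fell to 10.9, 11.3 and 9.49 FPKM, against 20.5, 21.3 and 22.3 FPKM without LPS, in silenced cells, and to 10.8, 12.3 and 10.0 FPKM, against 22.3, 17.6 and 22.8 FPKM, in control cells. No LPS library reached one without LPS (log2 fold change -0.96 ± 0.11 in silenced and -0.86 ± 0.11 in control cells, limma adjusted p = 3.36e-05 and 7.87e-05). Slc30a1 (ZnT1), the zinc exporter of the plasma membrane, and Slc39a14 (ZIP14), an importer of zinc and iron, did not pass the test in either kind of cell. Slc30a1 averaged 7.23 FPKM after LPS and 7.28 FPKM without LPS in silenced cells and 6.87 and 7.47 FPKM in control cells. Slc39a14 averaged 8.50 and 7.36 FPKM in silenced cells and 6.88 and 5.91 FPKM in control cells.

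Of the 21 transporters of sodium, potassium, protons, calcium and anions, 4 rose and 10 fell in silenced cells and 4 rose and 9 fell in control cells. These counts hold Slc26a9 as risen, which entered through its LPS libraries, and Slc26a11 as fallen, which entered through libraries without LPS. Their direction is not read. Slc4a7, a sodium bicarbonate cotransporter that loads the cytosol with base, had 35.3, 29.9 and 39.6 FPKM after LPS and 7.09, 7.53 and 7.62 FPKM without LPS in silenced cells, and 36.1, 34.7 and 39.0 FPKM and 7.97, 8.44 and 6.84 FPKM in control cells. Levels after LPS were far above those without in both (log2 fold change 2.09 ± 0.11 in silenced and 2.11 ± 0.11 in control cells, limma adjusted p = 5.71e-08 and 5.91e-08). Slc12a4 (KCC1), a potassium chloride cotransporter, had a mean of 21.6 FPKM after LPS and 10.2 FPKM without in silenced cells, and 21.3 and 11.1 FPKM in control cells (log2 fold change 1.02 ± 0.11 and 0.87 ± 0.11, limma adjusted p = 2.03e-05 and 6.77e-05). Slc26a11, a sulfate and anion transporter, averaged 0.275 FPKM after LPS and 2.28 FPKM without in silenced cells and 0.213 and 3.37 FPKM in control cells, and Slc26a9, a chloride channel and transporter, 1.64 and 0.0649 FPKM and 0.854 and 0.034 FPKM. Slc9a9 (NHE9) did not pass the test at means of 0.742 to 0.905 FPKM.

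Of 24 amino acid transporters, 4 rose and 9 fell in silenced cells and 5 rose and 12 fell in control cells. The risen in both include Slc6a4, which entered through its LPS libraries and whose direction is not read. Chains of the heteromeric family did not all move one way. Slc7a7 (y+LAT1), whose sequence is shown above, had 6.84, 6.2 and 7.59 FPKM after LPS and 0.845, 0.829 and 1.3 FPKM without LPS in silenced cells, and 6.77, 7.25 and 8.15 FPKM and 0.95, 0.993 and 0.961 FPKM in control cells. LPS libraries were several-fold above the rest (log2 fold change 1.99 ± 0.12 in silenced and 2.09 ± 0.12 in control cells, limma adjusted p = 1.84e-07 and 1.5e-07). It shares exonic bases with Oxa1l on the other strand. Slc7a8 (LAT2) averaged 13.7 FPKM after LPS and 6.01 FPKM without in silenced cells, and 15.1 and 7.47 FPKM in control cells (log2 fold change 1.07 ± 0.17 and 0.89 ± 0.17, limma adjusted p = 0.000346 and 0.00129). Slc3a2 (4F2hc), the heavy chain that light chains such as Slc7a7, Slc7a8 and Slc7a5 need to reach the membrane, had 68.2, 60.1 and 57.7 FPKM after LPS and 43.3, 40.4 and 43.5 FPKM without LPS in silenced cells, and 59.1, 58.4 and 51.5 FPKM and 43.0, 43.8 and 36.4 FPKM in control cells. The rise was small and the times did not overlap (log2 fold change 0.53 ± 0.10 in silenced and 0.45 ± 0.10 in control cells, limma adjusted p = 0.000677 and 0.00226). Slc7a6 (y+LAT2), a paralog of Slc7a7 named here after its values were seen, had 8.95, 11.4 and 9.0 FPKM after LPS and 16.4, 15.6 and 17.4 FPKM without LPS in silenced cells, and 12.2, 11.3 and 11.1 FPKM and 19.3, 16.6 and 19.2 FPKM in control cells. It fell in both, with no overlap (log2 fold change -0.70 ± 0.10 in silenced and -0.62 ± 0.10 in control cells, limma adjusted p = 0.000157 and 0.000387). Slc7a5 (LAT1) did not pass the test, with means of 24.4 FPKM after LPS and 29.4 FPKM without in silenced cells and 25.3 FPKM at both times in control cells. Nor did Slc1a5 (ASCT2), a glutamine transporter, with 66.6 and 64.7 FPKM in silenced cells and 76.1 and 63.6 FPKM in control cells.

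The amino acid transporters that fell included Slc43a2 (LAT4), a sodium-independent uniporter of branched-chain and aromatic amino acids. It had 3.98, 1.14 and 2.95 FPKM after LPS and 21, 17.5 and 21.1 FPKM without LPS in silenced cells, and 4.82, 4.89 and 4.6 FPKM and 23.9, 22.9 and 29.0 FPKM in control cells. No LPS library came near one without LPS (log2 fold change -2.58 ± 0.24 in silenced and -2.18 ± 0.24 in control cells, limma adjusted p = 5.45e-06 and 2.13e-05). Slc38a2 (SNAT2), a sodium-coupled importer of neutral amino acids, had 37.2, 33.2 and 25.9 FPKM after LPS and 56.1, 55.7 and 53.9 FPKM without LPS in silenced cells, and 28.6, 29.7 and 26.2 FPKM and 61.6, 59.3 and 67.3 FPKM in control cells (log2 fold change -0.78 ± 0.11 and -1.13 ± 0.11, limma adjusted p = 0.000162 and 1.09e-05). Slc6a6, the taurine transporter, had 47.9, 45.1 and 37.1 FPKM after LPS and 88.8, 87.5 and 94.5 FPKM without LPS in silenced cells, and 48.3, 52.2 and 41.1 FPKM and 89.8, 87.5 and 99.5 FPKM in control cells (log2 fold change -1.05 ± 0.11 and -0.96 ± 0.11, limma adjusted p = 1.39e-05 and 2.98e-05). For both genes every LPS library was under every library without LPS. Slc6a8, the creatine transporter, averaged 6.39 FPKM after LPS and 14.4 FPKM without in silenced cells, and 8.29 and 16.7 FPKM in control cells, and also fell in both (limma adjusted p = 0.000189 and 0.000432). Slc36a1 (PAT1), a proton-coupled exporter of lysosomes, had 2.91, 2.59 and 2.52 FPKM after LPS and 6.93, 5.54 and 2.12 FPKM without LPS in silenced cells, times that overlapped (log2 fold change -0.57 ± 0.32, limma adjusted p = 0.172). In control cells it fell to 2.89, 0.898 and 1.06 FPKM, against 6.55, 6.26 and 6.77 FPKM without LPS, with no overlap (-1.60 ± 0.32, limma adjusted p = 0.00169). The difference between the 2 changes was not called (1.03 ± 0.46, limma adjusted p = 0.429). Slc6a4, the serotonin transporter, entered through its LPS libraries, at 7.42, 7.19 and 6.62 FPKM, against 0.848, 0.652 and 0.383 FPKM without LPS, in silenced cells and 4.84, 4.56 and 5.64 FPKM, against 0.492, 0.277 and 0.224 FPKM, in control cells.

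Mitochondrial carriers (33, the SLC25 family) were the largest class by number, and 7 rose and 18 fell in silenced cells and 5 rose and 14 fell in control cells. Their summed FPKM was 840 after LPS and 816 without LPS in silenced cells, and 825 and 803 in control cells, most of it from Slc25a5 and Slc25a4. Slc25a5 averaged 463 FPKM after LPS and 390 FPKM without in silenced cells, and 433 and 382 FPKM in control cells, with log2 fold changes of 0.24 ± 0.07 and 0.18 ± 0.07 (limma adjusted p = 0.0107 and 0.044) that became -0.12 and -0.19 with quantile normalization. The call in control cells was also lost without control LPS replicate 1, 2 or 3 (0.0702, 0.123 and 0.0789), control replicate 1 or 3 without LPS (0.057 and 0.153), silenced LPS replicate 2 (0.0616) or silenced replicate 1 or 2 without LPS (0.053 and 0.06). Slc25a22, the glutamate carrier, had 10.9, 12.1 and 13.0 FPKM after LPS and 4.31, 5.56 and 4.46 FPKM without LPS in silenced cells, and 9.47, 10.5 and 10.2 FPKM and 5.81, 7.27 and 4.53 FPKM in control cells. All LPS libraries were higher (log2 fold change 1.17 ± 0.14 in silenced and 0.70 ± 0.14 in control cells, limma adjusted p = 3.98e-05 and 0.00164). Several carriers fell. Slc25a45 averaged 2.59 FPKM after LPS and 9.31 FPKM without in silenced cells, and 3.48 and 9.5 FPKM in control cells (log2 fold change -1.54 ± 0.20 and -1.23 ± 0.20, limma adjusted p = 7.04e-05 and 0.000386). Slc25a36, a pyrimidine nucleotide carrier, Slc25a30, and Slc25a51, the NAD importer, which shares exonic bases with Gm25692, had log2 fold changes of -0.91, -0.75 and -1.02 in silenced cells (limma adjusted p = 0.000186, 0.000213 and 1.22e-05) and -1.09, -0.97 and -0.72 in control cells (5.31e-05, 3.51e-05 and 0.000182). Slc25a10, the dicarboxylate carrier, and Slc25a38, a glycine carrier of heme synthesis, changed by -0.67 and -0.61 in silenced cells (limma adjusted p = 0.00196 and 0.0102) and by -0.90 and -0.99 in control cells (0.000277 and 0.000517). Slc25a38 lost its call in silenced cells with median-ratio scaling and with quantile normalization (adjusted p = 0.0859 each). Slc25a1, which exports citrate to the cytosol, averaged 8.87 FPKM after LPS and 13.8 FPKM without in silenced cells, and 8.93 and 12.4 FPKM in control cells. Its fall passed the test in silenced cells (log2 fold change -0.58 ± 0.11, limma adjusted p = 0.00127), and in control cells it did so as deposited (-0.42 ± 0.11, 0.00939) but not with median-ratio scaling (-0.21, 0.136).

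Of the remaining classes, the carriers of sugars, vitamins, lipids, nucleotide sugars and carboxylates (10, 6, 8, 5 and 6 members) had 0 risen members in silenced cells and 1, a sugar transporter, in control cells. They are grouped here with their counts known, and 13.0% of all genes tested rose in silenced and 15.3% in control cells. The nucleoside class had 1 risen member in each kind of cell and the phosphate class 1 in silenced cells. Slc19a2, the high-affinity thiamine transporter, had 2.41, 1.42 and 2.26 FPKM after LPS and 12.7, 10.9 and 13.9 FPKM without LPS in silenced cells, and 0.836, 1.56 and 2.41 FPKM and 12.7, 13.0 and 11.5 FPKM in control cells. Every LPS library lay far under every library without LPS (log2 fold change -2.16 ± 0.20 in silenced and -2.41 ± 0.20 in control cells, limma adjusted p = 5.93e-06 and 2.78e-06). The 6 vitamin transporters together had a summed 51.8 FPKM after LPS and 75.3 FPKM without in silenced cells, and 44.9 and 66.8 FPKM in control cells. Slc46a1, the folate transporter, did not pass the test, at means of 0.403 FPKM after LPS and 0.973 FPKM without in silenced cells and 0.53 and 0.877 FPKM in control cells. Among the 10 sugar and sugar phosphate transporters 0 rose and 5 fell in silenced cells, and 1 rose and 4 fell in control cells. Slc5a3, the myo-inositol cotransporter, had 1.32, 1.37 and 0.75 FPKM after LPS and 7.44, 6.81 and 6.5 FPKM without LPS in silenced cells, and 1.13, 1.27 and 1.4 FPKM and 5.9, 6.7 and 7.86 FPKM in control cells. The times were well apart (log2 fold change -1.90 ± 0.14 in silenced and -1.78 ± 0.14 in control cells, limma adjusted p = 8.19e-07 and 1.52e-06), although Slc5a3 shares exonic bases with Mrps6 on the same strand and its level is uncertain. Slc2a3 (GLUT3), a high-affinity glucose transporter, averaged 3.37 FPKM after LPS and 7.97 FPKM without in silenced cells, and 3.64 and 7.57 FPKM in control cells (log2 fold change -1.04 ± 0.11 and -0.89 ± 0.11, limma adjusted p = 1.76e-05 and 6.37e-05). Slc45a4 fell by 0.76 in silenced and by 1.02 in control cells on the log2 scale (limma adjusted p = 0.000774 and 9.41e-05).

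Slc37a4, the glucose 6-phosphate transporter of the ER, lies next to the silenced gene. It occupies chr9:44396852-44402968 on the plus strand of GRCm38, and Trappc4 occupies chr9:44403698-44407600 on the minus strand, so that their ends face each other across 729 bases. Slc37a4 had 4.06, 3.53 and 4.38 FPKM after LPS and 9.26, 8.28 and 11.6 FPKM without LPS in silenced cells, and 5.75, 4.72 and 5.9 FPKM and 7.82, 9.57 and 11.2 FPKM in control cells. It fell with LPS in both (log2 fold change -1.09 ± 0.15 in silenced and -0.70 ± 0.15 in control cells, limma adjusted p = 8.9e-05 and 0.00215). Silenced and control cells were not told apart by the test, at -0.37 ± 0.15 after LPS (limma adjusted p = 0.306) and 0.02 ± 0.15 without (0.968).

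Of the 4 nucleoside carriers 1 rose and 2 fell in silenced cells, and 1 rose and 1 fell in control cells. The risen one, Slc28a2 (CNT2), which takes up purine nucleosides with sodium, had 2.27, 1.85 and 2.86 FPKM after LPS and 0.621, 0.562 and 0.741 FPKM without LPS in silenced cells, and 1.61, 1.66 and 1.69 FPKM and 0.231, 0.0815 and 0.251 FPKM in control cells. It entered through its LPS libraries, so its direction is not read. Slc29a1 (ENT1), an equilibrative carrier, averaged 11.0 FPKM after LPS and 15.7 FPKM without in silenced cells, a fall (log2 fold change -0.48 ± 0.14, limma adjusted p = 0.0129) that median-ratio scaling (0.182) and quantile normalization (0.0665) took under the threshold. In control cells it averaged 13.8 and 17.2 FPKM (limma adjusted p = 0.0803). The lysosomal Slc29a3 (ENT3) did not pass, at 4.91 and 4.48 FPKM in silenced cells and 6.03 and 5.23 FPKM in control cells. Among lipid and choline transporters, Slc44a2, a choline transporter-like protein, had 5.44, 4.85 and 2.99 FPKM after LPS and 10.5, 12.7 and 12.9 FPKM without LPS in silenced cells, and 5.04, 4.18 and 4.55 FPKM and 10.7, 12.7 and 16.2 FPKM in control cells. LPS libraries were lower throughout (log2 fold change -1.29 ± 0.18 in silenced and -1.33 ± 0.18 in control cells, limma adjusted p = 0.000142 and 0.000119). Of the 4 phosphate and vesicular anion transporters 3 fell in each kind of cell. Slc17a9, the vesicular nucleotide transporter, averaged 5.67 FPKM after LPS and 12.9 FPKM without in silenced cells, and 8.11 and 14.3 FPKM in control cells (log2 fold change -1.07 ± 0.14 and -0.75 ± 0.14, limma adjusted p = 8.69e-05 and 0.00118). Slc17a5 (sialin), which exports sialic acid from lysosomes, had 6.68, 6.25 and 7.82 FPKM after LPS and 8.65, 15.3 and 18.8 FPKM without LPS in silenced cells and 6.78, 6.4 and 9.85 FPKM and 16.1, 15.9 and 18.1 FPKM in control cells (log2 fold change -0.89 ± 0.23 and -1.05 ± 0.23, limma adjusted p = 0.00723 and 0.00276). Slc20a2, a phosphate importer, fell to means of 5.49 FPKM, against 8.54 FPKM without LPS, in silenced cells (limma adjusted p = 0.000682) and 5.47 FPKM, against 7.75 FPKM, in control cells (0.00384, but 0.0641 with median-ratio scaling and 0.0947 with quantile normalization). Slc16a12, a creatine and monocarboxylate transporter that entered through libraries without LPS, averaged 0.148 FPKM after LPS and 2.01 FPKM without in silenced cells, and 0.0874 and 2.21 FPKM in control cells.

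Some calls rested on single libraries or on the scaling. Slc6a12 rose in control cells as tested, with 74.9, 86.1 and 68.1 FPKM after LPS and 50.3, 50.1 and 66.2 FPKM without LPS (log2 fold change 0.46 ± 0.16, limma adjusted p = 0.0334). Its call was lost without control LPS replicate 1 or 2 (adjusted p = 0.0663 and 0.114) or control replicate 1 or 2 without LPS (0.107 and 0.105). Slc25a37 (mitoferrin 1), which brings iron into mitochondria, rose in control cells to a mean of 11.5 FPKM after LPS, against 7.59 FPKM without (0.52 ± 0.17, limma adjusted p = 0.0238). That call was lost without control LPS replicate 1 or 3 (0.0966 and 0.0725) or control replicate 1 or 2 without LPS (0.0557 and 0.0668), while in silenced cells means of 16.1 and 7.95 FPKM gave a call that no alternative ended (0.92 ± 0.17, limma adjusted p = 0.000807). Slc48a1, a heme transporter of endolysosomes, fell in both, to a mean of 7.48 FPKM, against 12.3 FPKM, in silenced cells (limma adjusted p = 0.000881) and 8.14 FPKM, against 11.2 FPKM, in control cells (0.0144). The call in control cells was lost without control replicate 1 without LPS (0.0552), with median-ratio scaling (0.162) and with quantile normalization (0.0996). Slc20a1, another phosphate importer, rose in silenced cells to a mean of 18.5 FPKM after LPS, against 14.2 FPKM without (0.36 ± 0.12, limma adjusted p = 0.0233), a call lost without silenced LPS replicate 1 or 2 (0.0666 and 0.0771) or silenced replicate 3 without LPS (0.0833). Slc25a33, a pyrimidine nucleotide carrier, rose to means of 8.95 FPKM, against 5.44 FPKM, in silenced cells and 8.61 FPKM, against 4.7 FPKM, in control cells (limma adjusted p = 0.0269 and 0.00816). In silenced cells that call was lost without silenced LPS replicate 1 or 2 (0.11 and 0.0727) or silenced replicate 3 without LPS (0.098). Slc2a8 (GLUT8), an intracellular sugar transporter, fell in silenced cells to a mean of 0.838 FPKM, against 2.16 FPKM (-0.78 ± 0.26, limma adjusted p = 0.0284), and lost the call without silenced LPS replicate 1 or 2 (0.0736 and 0.0842) or silenced replicate 3 without LPS (0.103). Slc23a2, a vitamin C transporter, fell to means of 33.1 FPKM, against 44.7 FPKM, in silenced cells and 24.4 FPKM, against 36.3 FPKM, in control cells (limma adjusted p = 0.0246 and 0.00662). Neither call remained with median-ratio scaling (0.413 and 0.0824), and that in silenced cells was lost without silenced LPS replicate 3 (0.0999) or silenced replicate 1 or 2 without LPS (0.0806 and 0.0707).

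The LPS changes of silenced and control cells were set side by side. Of the 24 that rose in each, 20 were shared (83.3% of each list), and of 65 that fell in silenced and 59 in control cells 52 were shared (80.0% and 88.1%). Over all genes tested, the genes risen in both were 81.0% of those risen in silenced cells and 68.9% of those risen in control cells, and the fallen ones 76.7% and 82.7%. These 2 comparisons contrast different libraries, but their tests use 1 spread per gene, estimated from all 12 libraries. The 2 lists of calls are therefore not independent. Both called 72 members, 28 were called in only 1 kind of cell, 49 in neither, and 0 in opposite directions. A call in 1 kind of cell alone does not show a difference, which was tested as the interaction (the LPS change in silenced cells minus that in control cells). By limma 0 members passed in either direction, where 0.0382% of all genes tested were called higher and 0.0229% lower. At an unadjusted p under 0.05 there were 14 members (9.4%), against 11.3% of all genes. The smallest p belonged to Slc39a6 (ZIP6), a zinc importer, with 17.7, 16.8 and 17.3 FPKM in silenced and 20.2, 21.1 and 21 FPKM in control cells after LPS, and 24.3, 23.5 and 26.5 FPKM in silenced and 21.7, 20.8 and 23.6 FPKM in control cells without LPS. Silenced cells were the lower after LPS and, but for overlap, the higher without, with an interaction of -0.41 ± 0.11 (95% interval -0.64 to -0.18, limma adjusted p = 0.230). Others with a small p were Slc38a10, Slc25a4, Slc39a1 and Slc25a44 at -0.46, -0.32, -0.49 and -0.50 (limma adjusted p = 0.294, 0.300, 0.306 and 0.332).

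**Figure D3:**
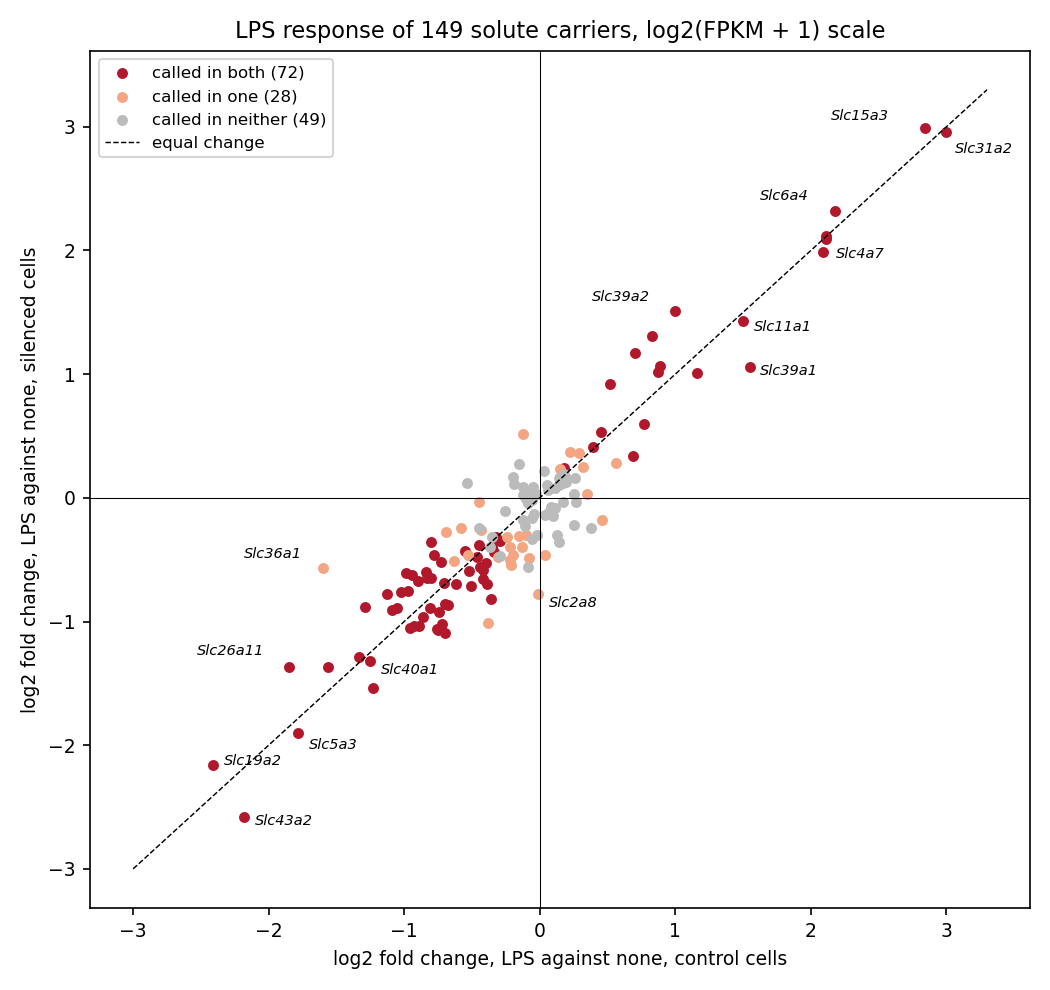
Log2 fold change with LPS of the 149 transporters in control cells (horizontal) and silenced cells (vertical), on the log2(FPKM + 1) scale, coloured by whether limma called them in both, one or neither. The 72 members called in both lie near the dashed line of equal change.

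Few differences between silenced and control cells passed the test, in a design in which Trappc4 itself did not pass it. After LPS 0 members were higher and 1 was lower in silenced than in control cells, where 0.314% of all genes tested were higher and 0.405% lower by limma. At an unadjusted p under 0.05 there were 27 members (18.1%), against 13.0% of all genes. Without LPS 0 members were higher and 0 lower, where 0.122% and 0.0918% of all genes were. There, 10 members (6.71%) had an unadjusted p under 0.05, against 12% of all genes. The log2 fold changes of the 149 ran from -0.73 to 0.87 after LPS and from -0.49 to 0.49 without LPS, with medians of -0.02 and 0.01, and the medians of all genes were -0.03 and 0.01. The 1 call was Slc25a23, a calcium-regulated carrier that exchanges ATP-Mg for phosphate across the inner mitochondrial membrane. After LPS it had 4.08, 4.57 and 4.97 FPKM in silenced cells and 7.15, 6.11 and 6.74 FPKM in control cells. Without LPS it had 7.33, 7.19 and 7.36 FPKM in silenced cells and 9.43, 9.9 and 10.7 FPKM in control cells. Every silenced library lay under every control library at its time, which adds no support, since the gene was picked by its p. The log2 fold change was -0.47 ± 0.09 after LPS (95% interval -0.67 to -0.27, limma adjusted p = 0.0472) and -0.41 ± 0.09 without LPS (-0.61 to -0.21, 0.117). The call after LPS lay just inside the threshold and was lost when any 1 of the 12 libraries was left out (adjusted p = 0.0553 to 0.18), while the fold change stayed between -0.41 and -0.53 there. The gene fell with LPS in both kinds of cells (-0.59 ± 0.09 in silenced and -0.52 ± 0.09 in control cells, limma adjusted p = 0.000262 and 0.000626), and it shares exonic bases with Gm17168 on the other strand.

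**Figure D4:**
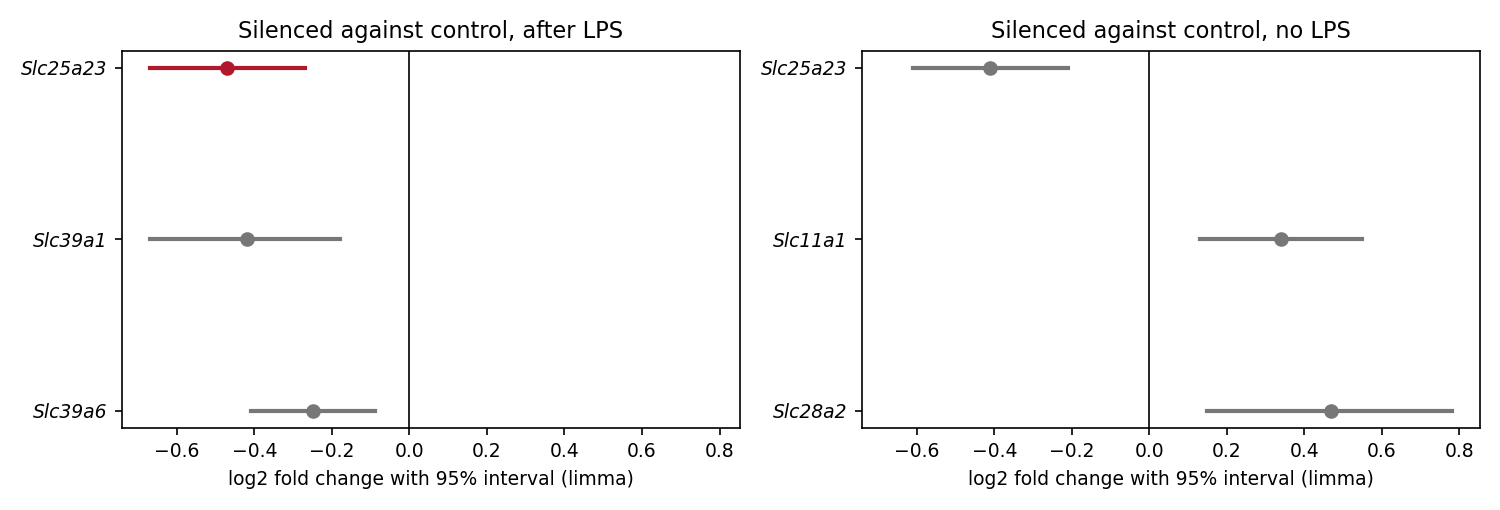
Log2 fold change of silenced against control cells, with limma's 95% interval, for the 3 transporters with the smallest p after LPS (left) and without LPS (right). Slc25a23 after LPS (red) is the single call, and the grey ones did not pass.

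The other members with the smallest p after LPS did not pass. Slc39a1, at 129, 138 and 134 FPKM in silenced cells and 179, 168 and 191 FPKM in control cells, had a log2 fold change of -0.42 ± 0.11 (95% interval -0.67 to -0.18, limma adjusted p = 0.127). Slc39a6, Slc25a51, Slc26a9 and Slc17a9 had -0.25, -0.35, 0.53 and -0.46 (limma adjusted p = 0.167, 0.169, 0.181 and 0.184). For these 5 the silenced and control libraries did not overlap after LPS, which adds no support, since they were picked by p. Slc30a1, with a limma adjusted p of 0.786 after LPS, did not overlap either. Without LPS, Slc11a1 had 10.8, 12.5 and 11.7 FPKM in silenced cells and 9.4, 9.6 and 8.13 FPKM in control cells (0.34 ± 0.10, limma adjusted p = 0.213). Slc28a2, Slc26a11 and Slc6a12 had 0.47, -0.41 and 0.46 (limma adjusted p = 0.242, 0.254 and 0.303). They too were picked by p, and their lack of overlap adds no support. The differences between silenced and control cells after LPS and without LPS contrast different libraries, but their tests share 1 spread per gene from all 12 libraries. Each also shares its contrasted libraries with the LPS comparisons.

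Other transport genes were listed for comparison. With LPS, 13.0% of all genes tested rose and 35.5% fell in silenced cells, and 15.3% rose and 32.9% fell in control cells. Of 36 tested solute carriers whose symbols have another form, 2 rose and 16 fell with LPS in silenced cells and 2 rose and 12 fell in control cells. Slco4a1, an organic anion transporter, averaged 10.5 FPKM after LPS and 32.9 FPKM without in silenced cells, and 9.2 and 30.8 FPKM in control cells (log2 fold change -1.61 ± 0.20 and -1.64 ± 0.20, limma adjusted p = 4.86e-05 and 4.57e-05). Of 23 ABC transporters 2 rose and 15 fell in silenced cells and 3 rose and 12 fell in control cells. Of 12 ion pumps 1 rose and 6 fell in silenced cells, and 1 rose and 4 fell in control cells. Of the 6 left-out members over the limit, 3 rose and 2 fell in each. Of 11 metal-handling genes 2 rose and 6 fell in silenced cells and 1 rose and 4 fell in control cells. Mt2, a metallothionein that binds zinc and copper, averaged 378 FPKM after LPS and 148 FPKM without in silenced cells and 301 and 156 FPKM in control cells (log2 fold change in control cells 0.95 ± 0.15, limma adjusted p = 0.000296), and Hmox1, which breaks down heme, 39.9 and 63.7 FPKM and 29.4 and 55.8 FPKM (-0.90 ± 0.10 in control cells, 2.22e-05). Of 9 genes of the amino acid stress response 1 rose in silenced cells and 3 in control cells, with 0 fallen. Of 5 genes listed as accessory proteins 0 rose and 3 fell in silenced cells, and 1 rose and 3 fell in control cells. That list is loose, since Sumf1 and Ostm1, both fallen, are not partners of SLC proteins. In the comparison of silenced with control cells 1 left-out member, Slc37a2, was lower after LPS (7.19 FPKM in silenced and 15.5 FPKM in control cells, -1.0 ± 0.18, limma adjusted p = 0.0369).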

How the data were processed

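The authors deposited gene FPKM for 53801 gene records in 12 libraries. HISAT2, StringTie and GRCm38 appear in the submitters' processing notes, without versions or roles. Libraries were strand-specific, per the labels' protocols, and the strand setting of the counting is not given in the sources used here. The 13078 genes that reached 1 FPKM in 3 or more libraries were fitted with limma 3.58.1 in R 4.3.3 on log2(FPKM + 1), with 1 mean per group over the 12 libraries, an intensity trend and 8 residual degrees of freedom. No count test was used, since FPKM are not counts. Tests were 2-sided, with Benjamini-Hochberg adjustment over all genes tested and a threshold of 0.05. Depth is unknown, so no counting interval is given. Coordinates and exon overlaps come from the GENCODE M21 annotation of GRCm38, promoter windows from RefSeq.

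The genes named were the smallest p-values for silencing, the largest changes with LPS, up to 4 per class, transporters of known macrophage interest, the members nearest the limit and those with the highest level. Results for some genes that this rule names are not reported here. Members, classes, lists and motifs were chosen with earlier results of these data known. Alternatives were another pseudocount (0.1), a limit of 5 FPKM or none, other scalings, no trend, only the groups compared, a replicate block and each library left out.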

Additional observations from a re-analysis of the deposited data

How the results depend on the processing

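Of the calls made for the 77 named members, 93 remained calls under each alternative run and 30 were lost under at least 1. None of 17 named members without a call gained one. The single lower member after LPS in silenced cells, Slc25a23, was not called (count 0) with median-ratio scaling, quantile normalization, no filter on low values, no intensity trend, only the groups compared or a replicate block, and the count was 0 with each library left out (0 to 0). Median-ratio scaling gave 42 risen and 41 fallen members with LPS in silenced cells and 39 risen in control cells, and quantile normalization gave 43 fallen in silenced cells. Slc25a5 changed sign with quantile normalization, to a log2 fold change of -0.12 in silenced and -0.19 in control cells (0.24 and 0.18 as deposited). With single libraries left out, the risen members numbered 19 to 25 in silenced cells and 20 to 25 in control cells, and the fallen ones 59 to 67 and 52 to 60. The cause of these moves was not tested. Deviations from the group means correlated weakly between libraries with the same replicate number (r = -0.027 to 0.189 for 18 pairs) and with other numbers (-0.125 to 0.133 for 36 pairs). Whether the numbers mark shared transfections or batches cannot be told from these values. A replicate block gave 23 risen and 67 fallen members in silenced cells and 24 and 59 in control cells. A mean under 2 FPKM was found for 22 members, and their SE on the log2(FPKM + 1) scale was not always the largest. For LPS in control cells the SE was 0.49 for Slc35a4 (mean 12.4 FPKM), 0.43 for Slc26a10 (0.807 FPKM) and 0.13 for Slc26a11 (1.53 FPKM).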
